A study of Mus musculus with 21 samples.

Results

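The scaffold genes of the postsynaptic density examined here are Shank1, Shank2, Shank3, Dlgap1, Dlgap2, Dlgap3, Dlgap4, Dlg2 and Dlg4, chosen by symbol, with earlier results of these data known. All 9 were among the 5544 genes with deposited values. How these 5544 were chosen is not given in the sources used here. Shares and ranks over all genes refer to them alone. A gene called measured is one of them, and absence does not show that a gene was not expressed. RNA from dissected cortex of male C57BL/6 wild-type mice (C57BL/6J in the study's methods), labelled as 12 weeks old, was sequenced in 21 libraries. The 11 HF-HI (high-frequency head impact) libraries came from mice given 5 impacts under isoflurane on each of 6 days, 30 impacts in all. The 10 sham libraries came from mice that were handled and anesthetized in the same way without being hit, so every library carries the repeated isoflurane exposure. Both groups were taken 24 h after the last impact or sham procedure, and the comparison asks how the cortical level of each scaffold mRNA differed after the impacts. The values are a log2-scale measure of expression (variance-stabilized counts), so a difference of 1 is a doubling for well-expressed genes. The RNA was from whole cortex, in which a lower or higher share of a cell type and less or more RNA per cell cannot be told apart.

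The postsynaptic density is a protein mesh beneath the membrane of excitatory synapses that holds glutamate receptors opposite the sites of transmitter release. Its layers follow the order of these families. Dlg proteins such as PSD-95 (Dlg4) and PSD-93 (Dlg2) bind receptors and channels at the membrane through their PDZ domains. Dlgap proteins (also called SAPAP or GKAP) attach to the guanylate kinase domain of the Dlg proteins, and Shank proteins attach to Dlgap and lead on to Homer and the actin cytoskeleton of the spine. Mutations in SHANK3 cause Phelan-McDermid syndrome, and loss of Sapap3 (Dlgap3) produces compulsive grooming in mice.

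Of the 9 scaffold genes, 8 rose and 1 fell in HF-HI (limma's moderated test, Benjamini-Hochberg adjusted p under 0.05 over all genes). Across all genes tested 32.6% of genes were called higher and 33.6% lower. Dlgap4 and Shank3 rose most, by more than 2-fold, whereas Dlg2 fell slightly and Dlgap1 moved little. The median log2 difference of the 9 genes was 0.49, against -0.0086 over all genes. In 4 of the 9 genes (Shank2, Shank3, Dlgap2 and Dlgap4) every HF-HI library was above every sham library, which held for 8.71% of all genes.

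The relation of the values to GC content moved with the groups and bears on genes of high GC content. The slope of a library's values on exonic GC content, relative to the mean of all libraries, ran from -0.231 to 0.00582 per 10 percentage points of GC in sham (median -0.111) and from -0.0385 to 0.161 in HF-HI (median 0.109). Exons of the scaffold genes were 56.1% GC at the median, and those of all genes 47.6%. After the GC trend of each library was removed, 7 of the 9 genes were called higher and 0 lower, where 29.2% of all genes were called higher and 31.0% lower. In that fit neither Shank1 nor Dlg2 passed the threshold, and the median difference of the 9 genes was 0.35, against -0.0096 over all genes. Because the slope moved with the groups, a technical source and an effect of the impacts cannot be told apart. Removal of the trend may also take away a difference that followed the impacts. Differences below are given with their GC-removed values. The relative depth of the libraries was read from the spacing of the values. It ran from 0.579 to 1.26 in sham (median 0.864) and from 0.547 to 1.63 in HF-HI (median 1.17). Depth thus overlapped between the groups but tended to be higher in HF-HI.

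**Figure D1:**
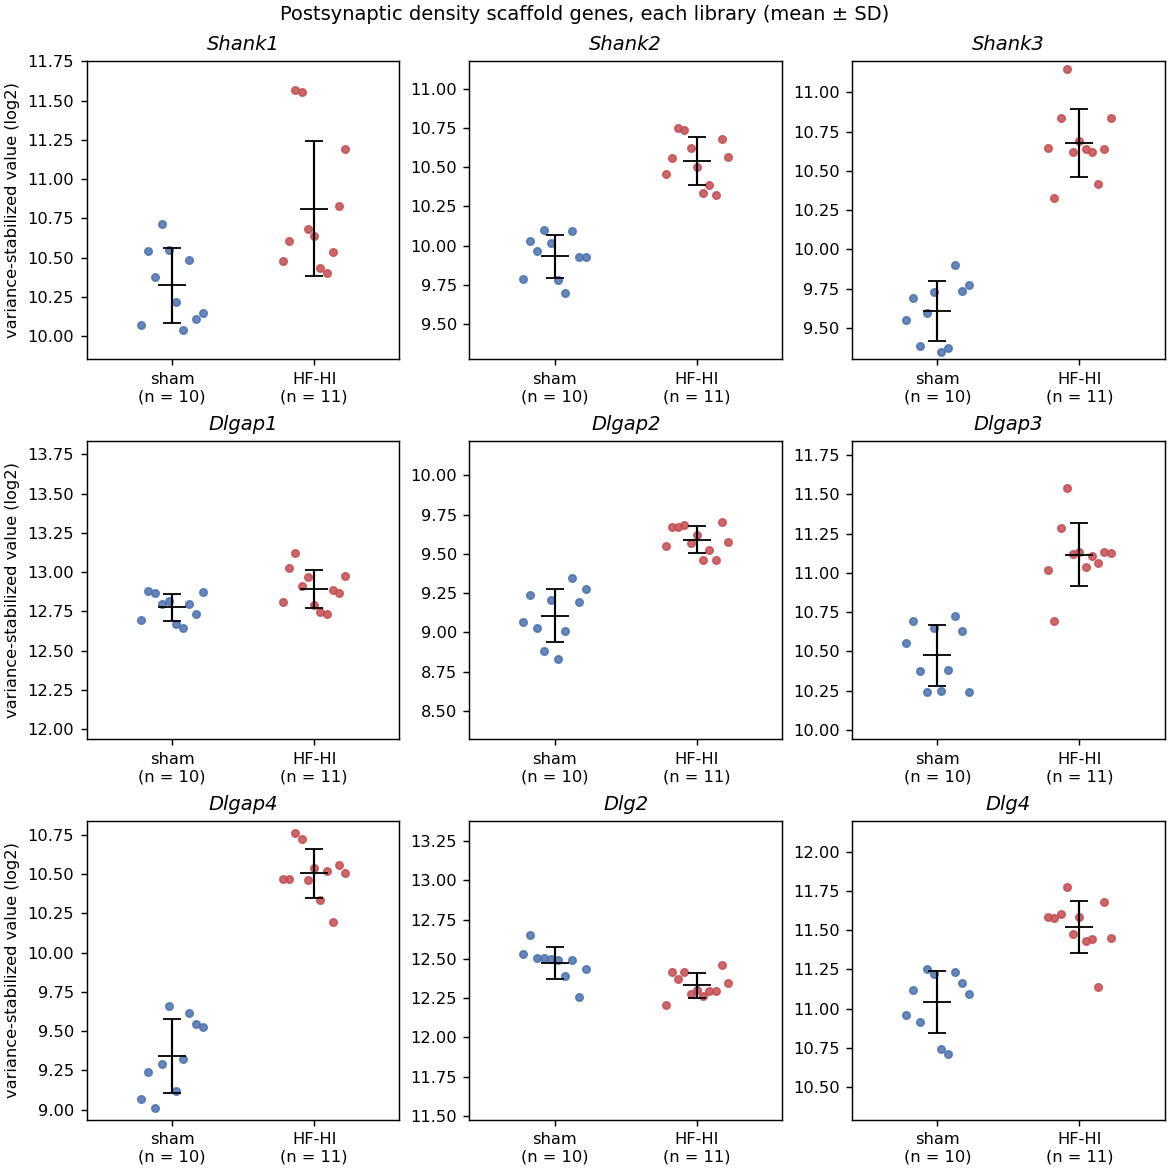
Variance-stabilized log2 value of each scaffold gene (vertical axis, the same span in every panel) in the 10 sham (blue) and 11 HF-HI (red) libraries. Points are libraries and bars are mean ± SD; the groups are fully apart for Shank2, Shank3, Dlgap2 and Dlgap4, and Dlg2 is lower in HF-HI.

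The sequence ahead of the annotated start was available in the RefSeq promoter table (GRCm38.p6) for 6 of the 9 genes, as 11 start sites. Shank1, Shank2 and Dlgap2 had no entry. The windows printed are 250 bases directly upstream of a RefSeq start, on the gene's strand, and were picked to set Shank3, which with Dlgap4 rose most of the 9, beside Dlgap1 and Dlg2, which moved least. The Shank3 window (chr15:89499358-89499607) and the Dlgap1 window (chr17:69968823-69969072) lie just upstream of the gene on the plus strand. The Dlg2 window (chr7:92062144-92062393) belongs to an internal start and lies in an intron, also on the plus strand. The Dlg2 window printed is 1 of 3 for that gene, and the Dlgap1 window is 1 of 2. Capitals mark matches to a GC box (GGGCGG) or an EGR site (GCGTGGGCG) on either strand.
Shank3: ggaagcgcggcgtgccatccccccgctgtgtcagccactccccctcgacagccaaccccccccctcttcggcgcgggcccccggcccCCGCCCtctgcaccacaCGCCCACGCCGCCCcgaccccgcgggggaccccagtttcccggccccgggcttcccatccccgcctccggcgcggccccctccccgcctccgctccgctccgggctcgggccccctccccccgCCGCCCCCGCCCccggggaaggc
Dlgap1: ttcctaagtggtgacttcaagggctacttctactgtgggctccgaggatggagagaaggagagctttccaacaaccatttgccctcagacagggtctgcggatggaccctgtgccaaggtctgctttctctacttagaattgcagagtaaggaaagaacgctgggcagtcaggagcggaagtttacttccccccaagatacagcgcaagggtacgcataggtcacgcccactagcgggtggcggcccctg
Dlg2: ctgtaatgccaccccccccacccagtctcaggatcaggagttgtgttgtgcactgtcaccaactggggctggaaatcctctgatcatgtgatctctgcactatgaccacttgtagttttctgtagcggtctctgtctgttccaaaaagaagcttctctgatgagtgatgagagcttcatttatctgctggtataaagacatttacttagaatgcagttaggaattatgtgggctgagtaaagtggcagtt

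The Shank3 window was 82.4% GC and held 4 GC boxes and 1 EGR site, whose match overlaps one of the boxes. The median GC content of all 32851 windows was 52.4%. The printed Dlgap1 window was 55.2% GC and the printed Dlg2 window 45.6%, and neither held a match. The other Dlgap1 window (52.4% GC) and the other Dlg2 windows (45.2% and 42.8%) overlap an exon and held no match either. Matches to the GC box were present in 32.7% of all windows and to the EGR site in 0.536%. Among the 11 windows of scaffold genes, 3 held a GC box: those of Shank3 and Dlgap4 and 1 of the 3 for Dlg4. The Dlgap4 window was 74% GC with 2 GC boxes. The Dlgap3 window, in an intron, was 46.8% GC without a match, and Dlgap3 rose by 0.64 as deposited. No match to a cAMP response element (TGACGTCA, in 1.55% of all windows) or an AP-1 site (TGACTCA, 4.46%) was found in the 11 windows. A match is a run of letters, not a bound site.

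In the membrane layer, Dlg4 rose and Dlg2 fell in the values as deposited. Dlg4 (ENSMUSG00000020886, chr11:70016942-70047522), which encodes PSD-95, ran from 10.7 to 11.3 in sham (median 11.1) and from 11.1 to 11.8 in HF-HI (median 11.6). Of the 11 HF-HI libraries 10 were above the highest sham library, and the lowest was HF-HI 9, a library of low relative depth (0.572). The log2 difference was 0.48 (SE 0.074), with an adjusted p of 7.18e-06 by limma, and 0.40 with the GC trend removed (adjusted p = 1.50e-05 by limma).

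Dlg2 (ENSMUSG00000052572, chr7:90476672-92449247), which encodes PSD-93, ran from 12.3 to 12.6 in sham (median 12.5) and from 12.2 to 12.5 in HF-HI (median 12.3). The groups overlapped, although all 11 HF-HI libraries were below the sham median. The log2 difference was -0.15 (SE 0.039), with an adjusted p of 0.00258 by limma. Dlg2 has the lowest exonic GC content of the 9 genes (41.7%), and with the GC trend removed the difference was -0.043 (adjusted p = 0.384 by limma). Exons of Dlg2 share bases with the same-strand annotations Gm45159 and Gm45131, which are not in the table.

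The Dlgap family, which links the Dlg layer to Shank, spanned the range from little change to the largest rise of the 9 genes. Dlgap4 (ENSMUSG00000061689, chr2:156613705-156764363) ran from 9.01 to 9.66 in sham (median 9.31) and from 10.2 to 10.8 in HF-HI (median 10.5). No libraries of the groups overlapped, and the gap between the highest sham and the lowest HF-HI library was wider than the SD of either group. The log2 difference of 1.16 (SE 0.080, 2.24-fold, adjusted p = 1.24e-10 by limma) ranked 15th of all 5544 genes. Its GC-removed difference was 0.92 (adjusted p = 1.28e-10 by limma) and ranked 26th.

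Dlgap3 (ENSMUSG00000042388, chr4:127169204-127237022) ran from 10.2 to 10.7 in sham (median 10.5) and from 10.7 to 11.5 in HF-HI (median 11.1). Only HF-HI 2, at 10.70, was below the highest sham library, at 10.72. Dlgap3 has the highest exonic GC content of the 9 genes (63.9%), and its difference of 0.64 (SE 0.080, adjusted p = 4.62e-07 by limma) was 0.25 with the GC trend removed (adjusted p = 5.25e-05 by limma).

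Dlgap2 (ENSMUSG00000047495, chr8:14095865-14847680) ran from 8.83 to 9.34 in sham (median 9.13) and from 9.46 to 9.70 in HF-HI (median 9.57). The groups did not overlap, and the HF-HI libraries were closer together (SD 0.0859) than the sham libraries (SD 0.170). The log2 difference was 0.48 (SE 0.055), with an adjusted p of 1.39e-07 by limma, and 0.35 with the GC trend removed (adjusted p = 3.73e-07 by limma).

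Dlgap1 (ENSMUSG00000003279, chr17:69969073-70821413), whose product is the founding GKAP/SAPAP1, ran from 12.6 to 12.9 in sham (median 12.8) and from 12.7 to 13.1 in HF-HI (median 12.9). The groups overlapped widely, with 6 of the 11 HF-HI libraries above the highest sham library and 3 below the sham median. The difference of 0.12 (SE 0.045, adjusted p = 0.0269 by limma) is a call near the threshold. It was not past the threshold when sham 6, sham 7, HF-HI 2 or HF-HI 3 was left out, with the largest adjusted p of 0.0548 by limma without sham 7. Centring each library on its median gave 0.064 (adjusted p = 0.194 by limma), and a Wilcoxon rank-sum test over all genes gave an adjusted p of 0.0632. Removal of the GC trend gave 0.15 (adjusted p = 0.00609 by limma).

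The Shank genes encode the deep scaffolds that join Dlgap proteins to Homer and cortactin, and all 3 rose in the values as deposited. Shank3 (ENSMUSG00000022623, chr15:89499623-89560261) ran from 9.35 to 9.90 in sham (median 9.64) and from 10.3 to 11.1 in HF-HI (median 10.6). Every HF-HI library was above every sham library. Its difference was the 23rd largest of the 5544 genes and the 62nd largest with the GC trend removed, where it was 0.72 (adjusted p = 9.96e-10 by limma). Leaving out any 1 library kept the difference as deposited between 1.02 and 1.10.

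Shank2 (ENSMUSG00000037541, chr7:144001928-144424494) ran from 9.70 to 10.1 in sham (median 9.95) and from 10.3 to 10.8 in HF-HI (median 10.6). The groups did not overlap. The log2 difference was 0.60 (SE 0.060, 1.52-fold, adjusted p = 1.96e-08 by limma), and 0.42 with the GC trend removed (adjusted p = 2.55e-07 by limma).

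Shank1 (ENSMUSG00000038738, chr7:44310253-44360572) was the most variable of the 9 genes. It ran from 10.04 to 10.71 in sham (median 10.3) and from 10.4 to 11.6 in HF-HI (median 10.6). HF-HI 3, 4 and 11 stood high, at 11.57, 11.55 and 11.19, while the other 8 HF-HI libraries were between 10.40 and 10.83 and largely overlapped with sham. The SD within groups was 0.353, which 1.05% of all genes exceeded, against a median of 0.104 over all genes. The difference of 0.49 (SE 0.14, adjusted p = 0.00406 by limma) became 0.17 (adjusted p = 0.271 by limma) with the GC trend removed.

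**Figure D2:**
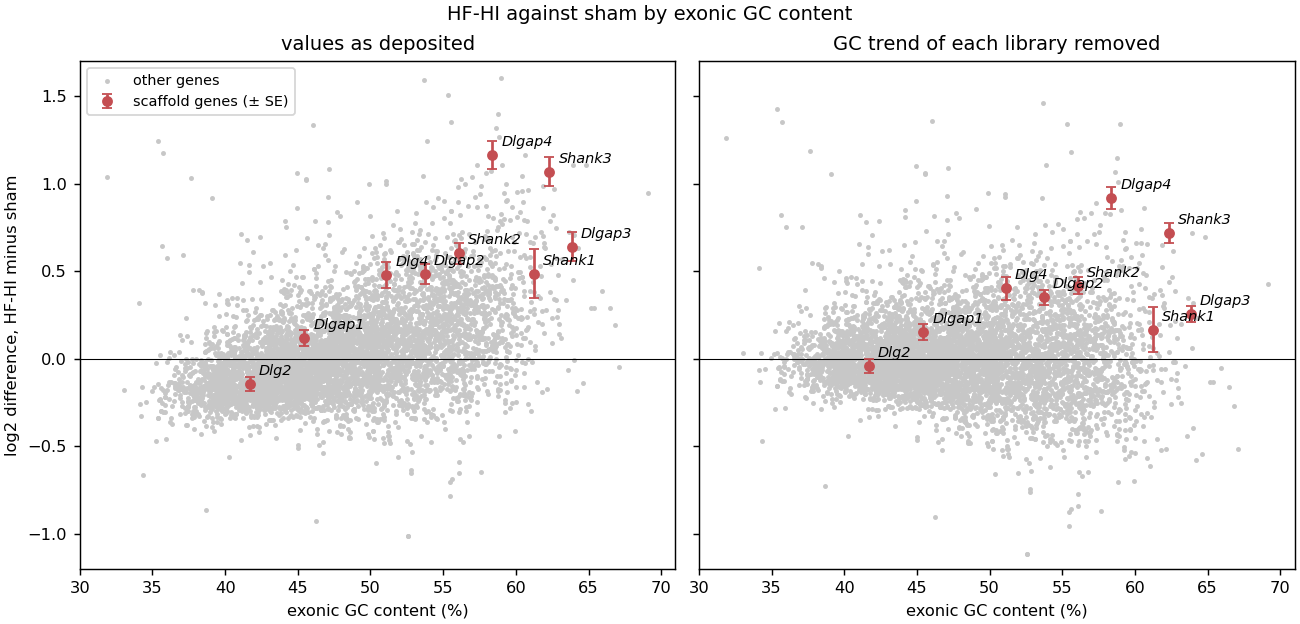
Log2 difference, HF-HI minus sham, of every gene (grey) and of the 9 scaffold genes (red, ± SE) against exonic GC content in percent, as deposited (left) and with the GC trend of each library removed (right). The rise of the grey cloud with GC in the left panel is absent in the right, where Dlgap4 (0.92) and Shank3 (0.72) remain well above 0 while Shank1 and Dlg2 no longer pass the threshold.

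Markers of cortical excitatory neurons moved with the scaffold genes. Of 6 listed markers 5 were in the table and 4 of them rose, among them Tbr1 by 1.02, Slc17a7 (the vesicular glutamate transporter VGLUT1) by 0.89 and Cux2 by 0.57 on the log2 scale (GC-removed 0.94, 0.71 and 0.39). The summed level of the measured markers was 12.7 to 13.1 in sham and 13.6 to 13.9 in HF-HI, without overlap. All 5 measured markers were higher once the GC trend was removed. Beside these marker counts, 32.6% of all genes were called higher and 33.6% lower as deposited. With the GC trend removed the shares were 29.2% and 31.0%. Of 5 measured inhibitory neuron markers 2 rose and 0 fell. Slc32a1 rose by 0.64 and Sst by 0.63 (GC-removed 0.30 and 0.44), each more than Cux2 as deposited. Gad1 (-0.097), Gad2 (-0.010) and Pvalb (-0.069) did not pass the threshold. The summed levels of the inhibitory markers overlapped (12.8 to 13.1 in sham, 12.7 to 13.2 in HF-HI). In sham the mean of Gad1 was 12.1, against 8.59 for Slc32a1 and 8.85 for Sst, so those 2 weigh little in the sum. Of the striatal markers, Drd1, a dopamine receptor, fell by 0.36 (GC-removed -0.33) and was more variable in HF-HI (SD 0.369) than in sham (SD 0.101), and Ppp1r1b (DARPP-32) differed by 0.091 (adjusted p = 0.449 by limma; GC-removed -0.16, adjusted p = 0.176). The part of cell makeup in the scaffold differences was not tested.

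Paralogs of a family did not change in step. The difference between 2 paralogs within a library is free of anything that scales a whole library, and its shift from sham to HF-HI was tested for 10 pairs by a two-sided permutation test with 100000 resamples and Benjamini-Hochberg adjustment over the 10 pairs. In 8 of the 10 pairs the shift passed an adjusted p of 0.05. Pairs of other genes were not tested in this way, so the count has no background beside it. Over all genes 32.6% were called higher and 33.6% lower as deposited. Unequal change is thus not shown to be particular to these families.

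Within Shank, Shank3 rose relative to both others. Shank2 minus Shank3 ran from 0.152 to 0.579 in sham (median 0.308) and from -0.409 to 0.230 in HF-HI (median -0.188). Of 11 HF-HI libraries 10 were below every sham library, and the mean difference changed sign from 0.33 to -0.14. The shift was -0.46 (SE 0.071, permutation test, adjusted p = 4e-05), and -0.30 with the GC trend removed (permutation test, adjusted p = 0.00038). Shank1 minus Shank3 ran from 0.372 to 1.12 in sham (median 0.740) and from -0.218 to 0.731 in HF-HI (median 0.115). The shift was -0.58 (SE 0.12, permutation test, adjusted p = 0.00035) and stayed at -0.55 with the GC trend removed, as the exons of these paralogs are close in GC content (61.3% and 62.3%). Shank1 minus Shank2 moved by -0.12 (SE 0.11, permutation test, adjusted p = 0.292). The HF-HI libraries spread to both sides of sham, with 7 of 11 below the lowest sham library and 3 (HF-HI 3, 4 and 11) above the highest. Removal of the GC trend made the same pair move by -0.25 (permutation test, adjusted p = 0.0295).

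Within Dlgap, Dlgap4 rose relative to each of the other three. Dlgap1 minus Dlgap4 ran from 3.16 to 3.86 in sham (median 3.42) and from 2.18 to 2.69 in HF-HI (median 2.36). Dlgap2 minus Dlgap4 ran from -0.455 to 0.0195 in sham (median -0.276) and from -1.10 to -0.732 in HF-HI (median -0.917). In both pairs all 11 HF-HI libraries were below every sham library. The shifts were -1.05 (SE 0.088) and -0.68 (SE 0.064), each with an adjusted p of 3.33e-05 (permutation test), which rests on the smallest p that the resamples can give. Dlgap3 minus Dlgap4 ran from 0.711 to 1.49 in sham (median 1.10) and from 0.228 to 0.871 in HF-HI (median 0.596), with a shift of -0.52 (SE 0.091, permutation test, adjusted p = 5e-05). These shifts with the GC trend removed were -0.77, -0.57 and -0.67, each with an adjusted p of 2.5e-05 (permutation test).

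Dlgap1 lagged behind its other paralogs as well. Dlgap1 minus Dlgap2 moved by -0.37 (SE 0.056, permutation test, adjusted p = 4e-05), and 10 of 11 HF-HI libraries lay below every sham library. Its GC-removed shift was -0.20 (permutation test, adjusted p = 0.000533). Dlgap1 minus Dlgap3 moved by -0.52 (SE 0.095, permutation test, adjusted p = 7.14e-05). This pair is the most unequal in exonic GC content (45.4% and 63.9%), and the shift was -0.10 with the GC trend removed (permutation test, adjusted p = 0.165). Dlgap2 minus Dlgap3 moved by -0.16 (SE 0.076), which did not pass the threshold (permutation test, adjusted p = 0.0608), and turned to 0.096 with the GC trend removed (permutation test, adjusted p = 0.137). Without HF-HI 2, where Dlgap3 was low, it was -0.21 (permutation test, adjusted p = 0.00025). Without sham 10, where Dlgap3 was at its sham minimum, it was -0.11 (permutation test, adjusted p = 0.131).

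Within Dlg, Dlg2 minus Dlg4 ran from 1.09 to 1.75 in sham (median 1.44) and from 0.618 to 1.16 in HF-HI (median 0.797). Of the HF-HI libraries 10 of 11 were below every sham library. The shift was -0.62 (SE 0.081, permutation test, adjusted p = 3.33e-05), and -0.45 with the GC trend removed (permutation test, adjusted p = 2.5e-05).

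**Figure D3:**
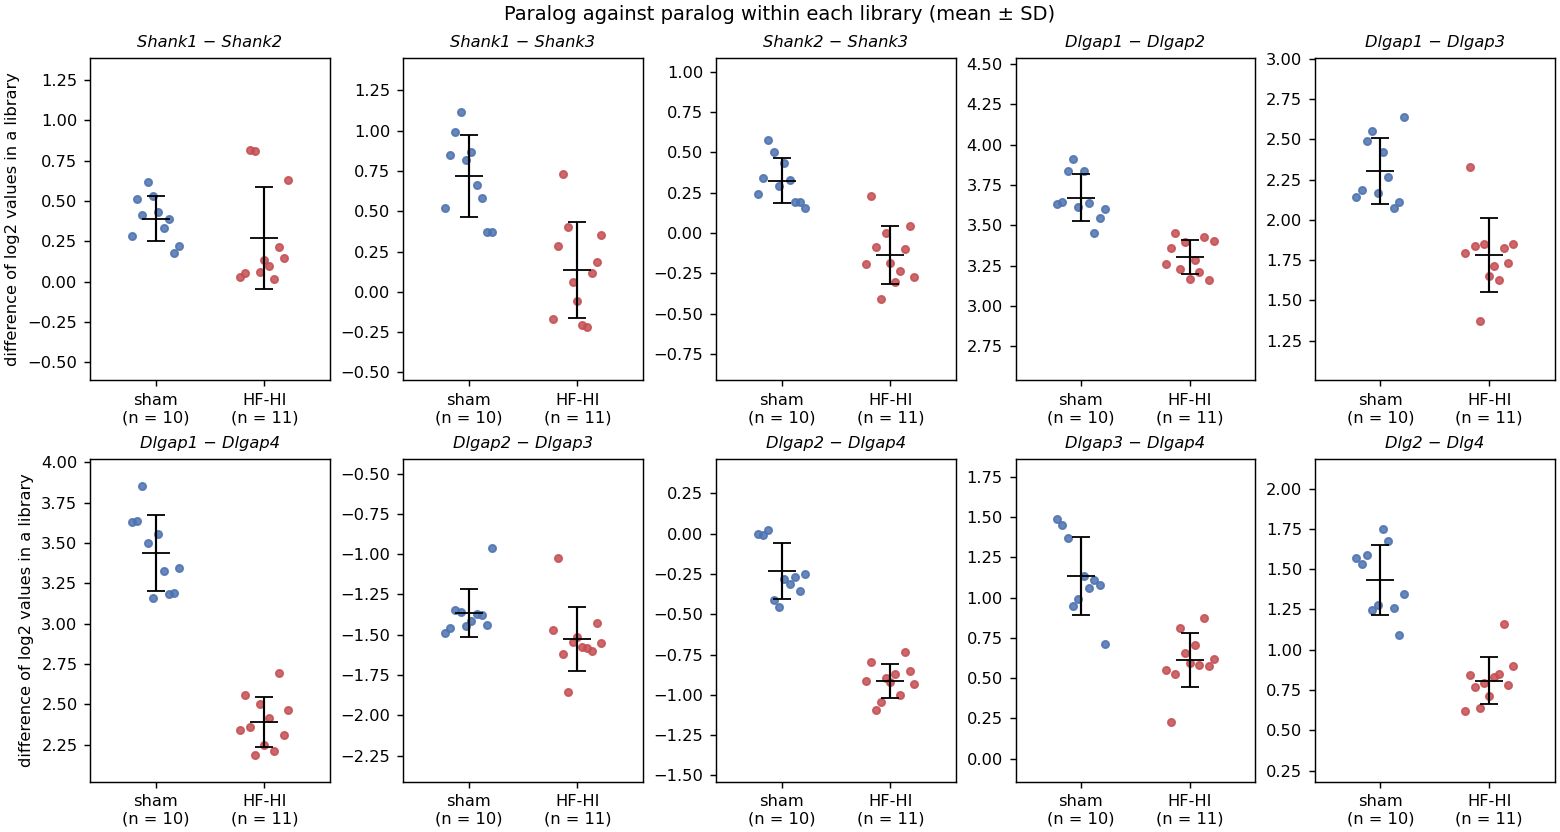
Within-library difference of the log2 values of 2 paralogs (vertical axis, the same span in every panel) for the 10 pairs, in sham (blue) and HF-HI (red) libraries, with mean ± SD. Only the pairs of Dlgap1 and Dlgap2 with Dlgap4 are fully apart. All other pairs overlap between the groups, and the shifts of Shank1 minus Shank2 and Dlgap2 minus Dlgap3 did not pass the threshold.

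The order of the scaffold mRNAs was compared per length, as the log2 value minus the log2 of the exonic length in kb. In sham Dlgap1 was highest per kb (8.62 ± 0.086, SD, n = 10), followed by Dlg2 (8.45 ± 0.10) and Dlgap3 (8.30 ± 0.20). Dlg4 (7.31 ± 0.20) and Shank1 (6.93 ± 0.24) came next. Shank2 (6.51), Dlgap2 (6.49), Shank3 (6.41) and Dlgap4 (6.26) formed the low end. The gap of Dlg2 to Dlgap3, of Shank2 to Dlgap2 and of Dlgap2 to Shank3 was smaller than its own SD across the sham libraries, so these neighbours did not differ beyond their spread, although Dlgap2 was above Shank3 in 9 of 10 libraries.

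In HF-HI the levels per kb ran from Dlgap3 (8.94 ± 0.20, SD, n = 11), Dlgap1 (8.73 ± 0.12) and Dlg2 (8.31 ± 0.078) through Dlg4 (7.79 ± 0.17) to Dlgap2 (6.97 ± 0.086) at the low end. Shank3 (7.48), Dlgap4 (7.42) and Shank1 (7.42) lay together below Dlg4, and Shank2 (7.11) came next. In the order of the 9, Shank3 thus moved from place 8 to 5 and Dlgap4 from 9 to 6. The gaps of Dlgap3 to Dlgap1, Shank3 to Dlgap4, Dlgap4 to Shank1 and Shank1 to Shank2 were smaller than their SD across the HF-HI libraries, although Dlgap3 was above Dlgap1 in 10 of 11 libraries and Shank1 above Shank2 in all 11. Exonic length is that of all annotated exons of a gene joined, which may exceed the transcripts used in cortex.

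**Figure D4:**
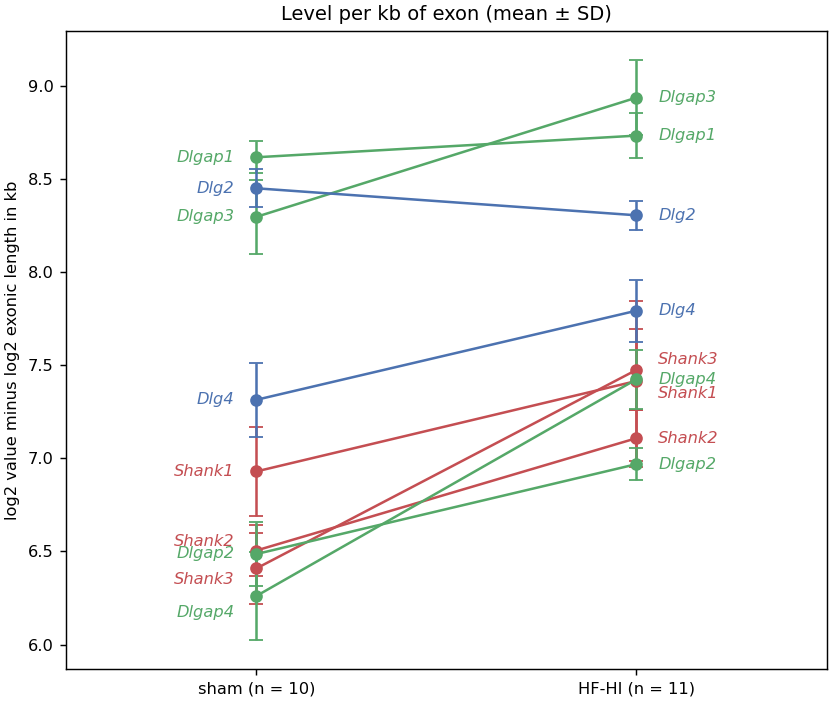
Level per kb of exon (log2 value minus log2 exonic length in kb) of the 9 scaffold genes, as mean ± SD in sham (n = 10) and HF-HI (n = 11), with Shank in red, Dlgap in green and Dlg in blue. Lines join the group means; Shank3 and Dlgap4 start at the low end in sham and lie with Shank1 in HF-HI, and Dlg2 is the only line that falls.

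Within each group, libraries with more of a scaffold mRNA tended to have more of the others. Over the 36 pairs of scaffold genes the median Pearson's r was 0.47 in the 10 sham libraries (33 pairs positive) and 0.58 in the 11 HF-HI libraries (36 positive). A permutation test of each pair, adjusted over all 72, called 5 pairs in sham and 12 in HF-HI. With Spearman's rho 3 and 8 pairs passed. On GC-removed values the median r was 0.36 in sham and 0.57 in HF-HI, and 1 pair passed in each group. Whether the groups differ in covariation was not tested. The same counts and medians were not taken over pairs of other genes, so they have no background beside them. Positive r is thus not shown to be particular to the scaffold genes.

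The pair that passed in both groups with the GC trend removed was Shank1 with Shank2. In sham r was 0.862 and rho 0.867 (n = 10, permutation test, adjusted p = 0.0188 and 0.0238), and r was 0.796 without the 2 libraries farthest from the median of Shank1. In HF-HI r was 0.821 and rho 0.90 (n = 11, permutation test, adjusted p = 0.0188 and 0.0238), and r was 0.645 without the 2 farthest libraries. The GC-removed r was 0.887 in sham and 0.864 in HF-HI (permutation test, adjusted p = 0.0356 and 0.018). The 2 genes both stood high in HF-HI 3 and 4, the libraries in which Shank1 exceeded 11.5.

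Shank2 with Dlg4 also passed in both groups as deposited, with r of 0.884 in sham (rho 0.879) and 0.758 in HF-HI (rho 0.80; permutation test, adjusted p = 0.0137 and 0.0212 for r). With the GC trend removed r was 0.662 and 0.569, and neither passed. The highest r in HF-HI joined Shank3 and Dlgap3 (0.903, rho 0.745, permutation test, adjusted p = 0.0137 for r). It fell to 0.613 without the 2 libraries farthest from the median of Shank3 (HF-HI 2 and HF-HI 4). Shank1 with Dlgap3 in HF-HI (r = 0.703) fell to 0.229 without the 2 farthest from the median of Shank1 (HF-HI 3 and HF-HI 4). The linear relation of Shank1 with Dlgap3 thus rests on HF-HI 3 and HF-HI 4, while rho over all 11 was 0.773 (permutation test, adjusted p = 0.0478). The most negative r was that of Dlgap4 with Dlg2 in sham (-0.393).

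The GC slope of a library tracked some of the genes within a group. In sham it correlated with Dlgap2 (r = 0.886, rho = 0.842), Shank3 (r = 0.883, rho = 0.867) and Dlgap3 (r = 0.863, rho = 0.733), with adjusted p of 0.0149, 0.0149 and 0.0253 for r over 36 relations (permutation test). Without the 2 libraries of farthest slope r was 0.77, 0.78 and 0.80. In HF-HI it correlated with Dlg4 (r = 0.847, rho = 0.755, permutation test, adjusted p = 0.0149 for r), and r was 0.647 without the 2 farthest. None of the 4 passed with rho, where the smallest adjusted p was 0.0648. The slope was computed from these same values over all genes of known GC content, the scaffold genes among them. Relations to the slope were not counted over other genes, so they have no background beside them. They are thus not shown to be particular to the scaffold genes. No scaffold gene correlated with relative depth past the threshold over all libraries of a group (permutation test, 18 of the 36 relations). Without the 2 libraries of farthest depth, r in HF-HI was negative for all 9 genes, from -0.805 (Shank1) to -0.289 (Dlgap3). In sham it then ran from -0.238 (Dlgap4) to 0.478 (Dlgap1). These r without the farthest libraries were not tested.

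**Figure D5:**
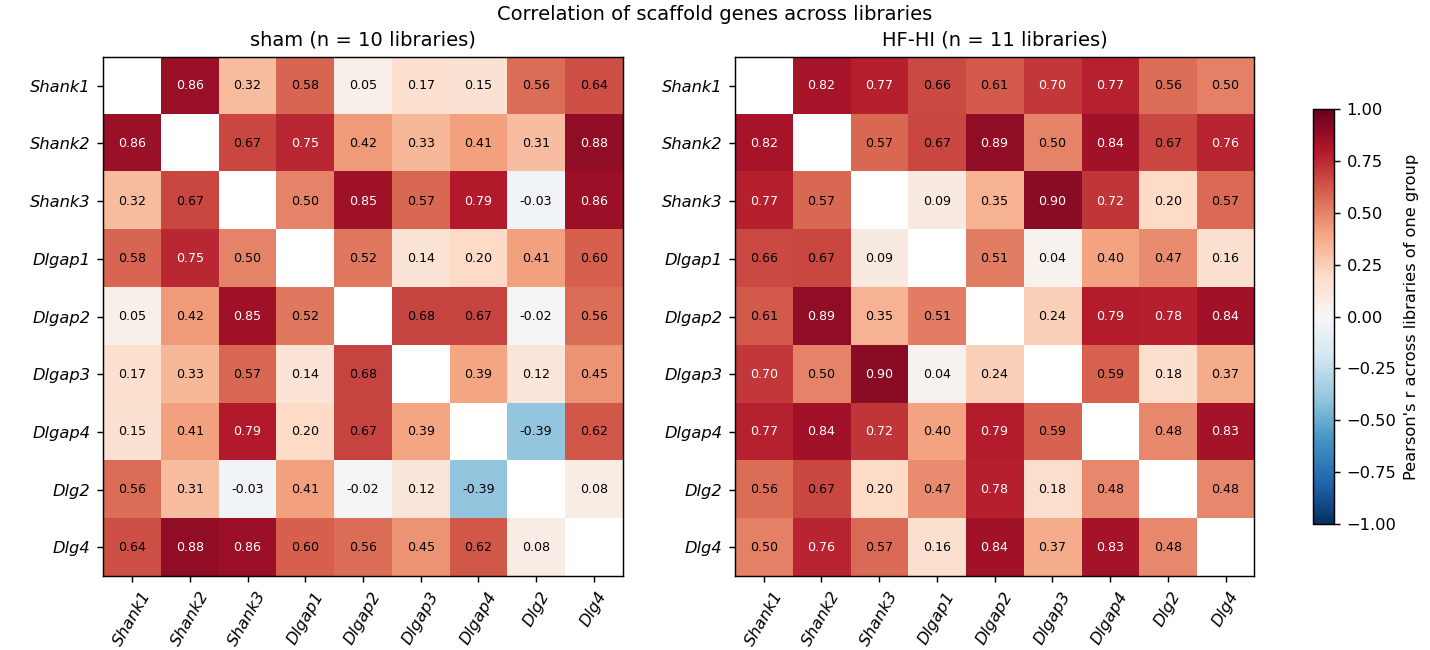
Pearson's r between scaffold genes across the 10 sham libraries (left) and the 11 HF-HI libraries (right), with colour from -1 (blue) to 1 (red). Shank1 with Shank2 is high in both panels (0.86 and 0.82), and Dlg2 with Dlgap4 is negative in sham (-0.39).

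The genes outside the 9 whose values followed each scaffold gene most closely were ranked by Pearson's r over the 21 libraries after the mean of each group was subtracted. This is a description, and the libraries share depth and GC trend. Dlgap4 was closest to Nlgn3 (0.953), a postsynaptic adhesion protein, then Fam53c (0.926) and Plppr2 (0.925). Dlgap2 was closest to Hip1 (0.942), Adgrl1 (0.916) and Farp1 (0.891). Shank1 was closest to Syn1 (0.917), which coats synaptic vesicles, Atp1b2 (0.904) and Nfix (0.863).

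Shank3 was closest to Jph4 (0.909), a junctophilin, Bcr (0.872) and Ajm1 (0.859). Among the genes closest to Shank2 were Rere (0.907) and Rptor (0.897), a subunit of mTORC1. Dlg4 was closest to Znrf1 (0.907), Ankrd52 (0.906) and Epas1 (0.897), and Dlgap3 to Irf2bpl (0.888), Zbtb7a (0.868) and Lrrc4b (0.852). Dlgap1 (Gm26870, 0.813; Nav2, 0.794; Ncor1, 0.788) and Dlg2 had looser neighbours. The nearest to Dlg2 were Slc1a2 (0.786), the astrocyte glutamate transporter, Ankfy1 (0.745) and Prkce (0.733). Once the GC trend was removed the nearest gene was the same for Dlgap2 (Hip1, 0.889) and another for the other 8, such as Cnnm1 (0.890) for Dlgap4.

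Other components of the postsynaptic density, listed apart from the 9 scaffolds, moved in both directions. Of 43 listed genes 33 were measured, and of these 17 rose and 5 fell, with a median log2 difference of 0.11 (GC-removed 19 higher and 2 lower, median 0.10). The shares over all genes were 32.6% higher and 33.6% lower as deposited, and 29.2% and 31.0% GC-removed, a background that also holds for the smaller groups of genes that follow. Among signalling proteins bound to the scaffold 8 of 10 rose and 0 fell. They included the Arf exchange factors Iqsec3 (0.52, GC-removed 0.39), Iqsec2 (0.42, GC-removed 0.16) and Iqsec1 (0.38, GC-removed 0.22), and Agap2 (0.34, but -0.021 GC-removed with an adjusted p of 0.597 by limma).

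Homer proteins bind Shank directly, and neither measured member passed the threshold as deposited, while Homer2 did with the GC trend removed (0.10, adjusted p = 0.0353 by limma). The sham mean of Homer1 was 12.8 ± 0.237 (SD, n = 10) and its HF-HI mean 12.6 ± 0.166 (SD, n = 11), a difference of -0.14 with an adjusted p of 0.135 by limma (GC-removed -0.0061, adjusted p = 0.953). Among the other MAGUKs Dlg1 (SAP97) fell by 0.15 (adjusted p = 5.28e-04 by limma), though it was -0.060 GC-removed (adjusted p = 0.0588 by limma). Dlg3 (SAP102) differed by 0.10 (adjusted p = 0.131 by limma; GC-removed 0.0044, adjusted p = 0.960). Mpp2 rose by 0.59 and Magi2 by 0.16, and Magi3 fell by 0.25 (GC-removed 0.41, 0.15 and -0.22). Mpp3 rose by 0.16 as deposited, but its GC-removed difference of 0.069 did not pass (adjusted p = 0.202 by limma).

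Of the adaptors, the dynein light chains that bind Dlgap proteins went opposite ways, with Dynll2 up by 1.59 (1.46 GC-removed) and Dynll1 down by 0.26 (GC-removed -0.32). Lzts3, which binds Shank, rose by 0.42 (GC-removed 0.16) and Tanc2 by 0.31 (GC-removed 0.34). Of the actin-linked spine proteins Ppp1r9b (spinophilin) rose by 0.70 and Baiap2 (IRSp53, a Shank partner) by 0.57, with GC-removed values of 0.36 and 0.35. Ppp1r9a (neurabin) fell by 0.084, a call lost on removal of the GC trend (-0.038, adjusted p = 0.207 by limma). Nlgn3 rose by 0.52 (GC-removed 0.47). Nlgn1 fell by 0.11 as deposited, but its GC-removed difference was 0.021 in the other direction (adjusted p = 0.584 by limma).

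At inhibitory postsynapses, which use gephyrin in place of these scaffolds, 6 of 7 listed genes were in the table and 3 rose and 3 fell. The adhesion protein Nlgn2 (0.44, GC-removed 0.14), Lhfpl4 (0.34, GC-removed 0.19) and Insyn1 (0.28, GC-removed -0.061) rose as deposited. Among those that fell were Gphn (gephyrin), by 0.21 (GC-removed -0.22), and Slitrk3, by 0.11 (GC-removed -0.12). On GC-removed values Lhfpl4 alone was higher, and Gphn and Slitrk3 were lower.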

How the data were processed

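RNA-seq libraries (stranded total RNA with rRNA depletion, 6 libraries to a sequencing pool) of mouse cortex were aligned by the authors to mm10 with STAR, counted per transcript with eXpress and normalized with DESeq2. The authors deposited variance-stabilized values on a log2 scale for 5544 genes, so a count test could not be run, and read totals are not given. The counting's strand setting and annotation are not given in the sources used here. Antisense annotations share exon bases with Shank1, Shank3, Dlgap1 and Dlgap4. Groups came from the sample labels, and they do not say that each library is a separate animal, so p-values measure the spread between these libraries, which may be technical.

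Symbols, coordinates, exonic GC content and length came from GENCODE vM21 (GRCm38). HF-HI was compared with sham by limma 3.58.1 in R 4.3.3 (mean-variance trend, two-sided, no filter, all 21 libraries). On simulated data of 5544 genes it recovered 194 of 200 shifts of 0.5, with 9 false calls. The simulated noise was independent between genes and had no GC or depth trend. These counts thus do not measure false calls in the real data. The GC trend was a lowess fit (span 0.3) of each library on exonic GC content, available for 5539 genes. Relative depth was read from the spacing of low values on the linear scale (500 to 600).

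The genes, lists and tests were chosen with earlier results of these data known. Genes named were the 9 scaffolds, the 5 of largest difference past the threshold in each direction of each list, Homer1, Dlg1, Dlg3 and the 3 nearest to each scaffold; a few genes that this rule or the marker lists take are not reported here. Markers of other cell types gave 3 higher and 1 lower of 6 for astrocytes, 1 and 0 of 6 for oligodendrocytes, 1 and 1 of 2 for microglia and 1 and 1 of 2 for endothelium. The shares over all genes were 32.6% higher and 33.6% lower. Drd1 was the 1 of 3 genes of neighbouring regions that was called, lower. Alternatives were another threshold, a minimum difference, other scalings and tests, a filter on low values, GC, length and depth terms, a replicate block and each library left out. Leaving out the 3 libraries of relative depth under 0.6 was added after the data were seen.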

Additional observations from a re-analysis of the deposited data

Results flagged for a closer look

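The within-library difference Dlgap2 minus Dlgap3 in sham had a library far from the others. In sham 10 it was -0.964, and the next library was at -1.35, a gap of 0.729 of the whole range of the group. Dlgap3 was at its sham minimum in that library (10.2). In all 19 such checks were made, each with a chance rate of 0.05.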

How the results depend on the processing

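With a minimum difference of 0.25 the calls were 0 lower scaffold genes, 1 lower other postsynaptic density gene, 0 lower inhibitory genes, and 987 higher and 446 lower genes in all. With the GC trend removed, 0 scaffold genes and 2 other postsynaptic density genes were lower and 1 inhibitory gene was higher, also 1 with GC and length trends removed. The pairs of scaffold genes correlated past the threshold fell to 1 in each group with the GC trend removed, and to 3 in sham with Spearman's rho. Dlgap2 minus Dlgap3 turned to 0.096 with the GC trend removed, to 0.052 with length as well and to 0.10 with GC and the replicate block. It passed the threshold by a rank-sum test (adjusted p = 0.00307) and after quantile normalization. The cause was not tested.

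The replicate numbers did not pair the samples: 4 of 10 same-numbered pairs correlated over 0.1 (r from -0.310 to 0.364), and 0 sham libraries correlated best with their own number. With a replicate block 8 scaffold genes were higher and 1 lower, and Shank1 was 0.45. With the block and the GC trend removed 0 scaffold genes and 2 other postsynaptic density genes were lower.

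With each library left out, 7 to 8 scaffold genes were higher, 1 was lower, and 8 to 9 paralog pairs passed. Dlgap1 lost its call without the 3 shallow libraries (0.11, adjusted p = 0.0615), with quantile normalization (adjusted p = 0.185) and with GC and length trends removed (0.084), leaving 7 higher in the first of these. Over all alternatives, 323 counts and medians were close to their main value. For genes and pairs, 559 values kept their direction and side of the threshold, 18 fell short of it, 6 passed it anew and 3 turned. Read totals were not at hand, so the counting error behind each value is unknown.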
